A study of Homo sapiens with 4 samples.

Results

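MYC is a transcription factor that binds DNA as a dimer with its partner MAX, preferring the E-box CACGTG, and raises the transcription of genes for growth and division. Its textbook targets include ODC1, which encodes ornithine decarboxylase, the rate-limiting enzyme of polyamine synthesis, and CDK4, a kinase that works with D-type cyclins to phosphorylate the retinoblastoma protein in G1. AGMAT is annotated as agmatinase, and the bacterial enzyme of that name makes the polyamine putrescine from agmatine, a route that does not need ornithine decarboxylase. Polyamines are small cations that bind nucleic acids and support translation, and ornithine decarboxylase has long been studied in neuroblastoma. The 4 genes MYC, ODC1, CDK4 and AGMAT were chosen by name, and all 4 were found among the 14812 genes named on the array.

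The cells were BE(2)C, a human neuroblastoma cell line, and their RNA was hybridised to Affymetrix Human Gene 2.0 ST arrays, 1 array a sample. One group received siRNA against SSRP1 (2 arrays) and the other a control siRNA with no target (2 arrays), both with the lipid reagent Lipofectamine and both harvested after 72 hours. SSRP1 is a subunit of FACT, a histone chaperone that opens and reassembles nucleosomes during transcription and replication. The labels give 1 catalogue number for the SSRP1 siRNA and do not say whether the replicates were separate cultures, so p-values cover only the spread between arrays, and this may be technical. Values are deposited log2 expression values per probe set, and a change is SSRP1 siRNA minus control siRNA on that log2 scale.

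The targeted transcript and the identity of the cells were examined first. SSRP1 had log2 values of 7.42 and 6.97 with SSRP1 siRNA, against 9.05 and 9.23 with control siRNA, which left 26.0% of the control level (limma adjusted p = 0.0479). The array medians lay between 3.37 and 3.42. Of 12 measured markers of adrenergic neuroblastoma cells none lay below a mean log2 value of 6.52, and their summed level was 12.76 and 12.79 with SSRP1 siRNA, against 12.85 and 12.85 with control siRNA. Within that list the change was -0.77 for DBH (adjusted p = 0.111) and 0.43 for DDC (adjusted p = 0.214), enzymes of catecholamine synthesis. Of the 12 changes 8 lay below 0 and 4 above, with a median of -0.12. An unadjusted limma p under 0.05 was found for 5 (41.7%), 2 higher and 3 lower, against 12.6% of all genes. The groups did not overlap in 9 of the 12 (75%), against 44.3% of all genes. The 3 measured blood and endothelial markers, CD2, CD14 and VWF, had mean log2 values between 3.14 and 3.57 and a summed level of 4.93 and 4.82 against 4.91 and 4.94. The 4 measured Schwann markers summed to 6.78 and 6.65 with SSRP1 siRNA, against 6.54 and 6.51 with control siRNA. Of these S100B had a change of 0.47 (limma adjusted p = 0.262). The groups overlapped for ERBB3 (0.12, adjusted p = 0.816), SOX10 (0.04, adjusted p = 0.925) and MBP (-0.02, adjusted p = 0.972). The 2 measured fibroblast markers summed to 8.61 and 8.38 with SSRP1 siRNA, against 7.68 and 6.98 with control siRNA. That difference came from LUM (change 1.20, adjusted p = 0.184), while the other marker, DCN, was dim at a mean of 2.59 (change -0.04). Of the 7 fibroblast markers listed only these 2 were measured. The part of these markers in the results below was not tested, and in bulk RNA fewer cells of a type and less RNA per cell cannot be told apart.

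None of the 4 genes passed the test over all genes. In limma's moderated test a gene passed at a Benjamini-Hochberg adjusted p under 0.05, which 0.0945% of all genes did (0.081% higher and 0.0135% lower), and 0 of the 4 members were among them. In the main fit AGMAT alone of the members had an unadjusted limma p under 0.05, as had 12.6% of all genes (6.56% higher and 6.03% lower). CDK4 lay just above that bound (0.05003). The arrays of the groups did not overlap for 3 of the 4, ODC1, CDK4 and AGMAT, against 44.3% of all genes. The mean log2 values of all genes had a median of 4.64, and several lists below were brighter. That median was 6.22 for the MYC partner list (with MLX, MLXIP and MLXIPL), 6.54 for the polyamine genes and 8.18 for the MYC-induced genes. No share was taken over genes of a matched level. The median standard error over all genes was 0.117, so a gene of that error would have needed a change of about 1.27 to reach the largest p among the genes that passed (4.66e-05). With their own errors the members would have needed between 1.08 (CDK4) and 1.54 (MYC), and the change measured for each of the 4 was smaller than this.

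**Figure D1:**
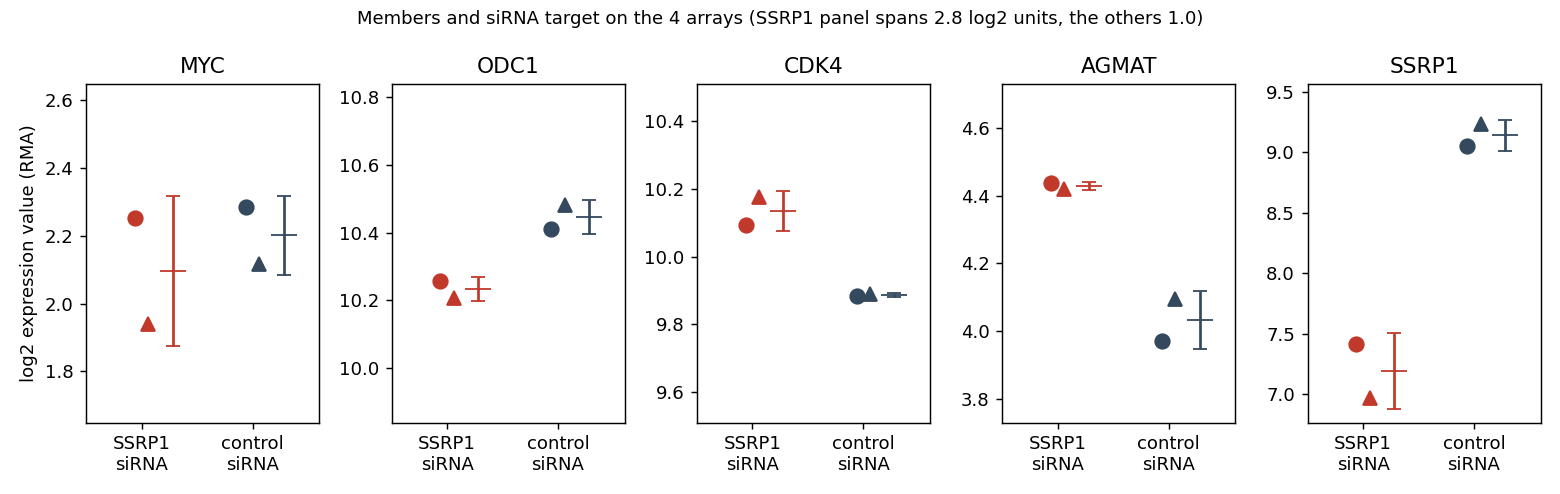
Log2 expression values (y axis) of MYC, ODC1, CDK4, AGMAT and the siRNA target SSRP1 on each array, with SSRP1 siRNA arrays in red and control siRNA arrays in dark blue, replicate 1 as circles and replicate 2 as triangles. Horizontal marks with bars are the mean ± SD of the 2 arrays, and the red and blue points are apart in every panel except that of MYC.

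The MYC transcript was dim in both groups and did not separate them. Its log2 values were 2.25 and 1.94 with SSRP1 siRNA, against 2.28 and 2.12 with control siRNA. The higher SSRP1 siRNA array lay between the control arrays and the lower one below both. The group means were 2.10 ± 0.22 with SSRP1 siRNA and 2.20 ± 0.12 with control siRNA (SD, n = 2 each). The change was -0.10 ± 0.14 (SE, limma adjusted p = 0.819), or 93.0% of the control level (95% interval 72.9 to 119%). Of all genes, 55.8% had a larger change in size than MYC. Without SSRP1 siRNA replicate 2 the change was 0.05, and without SSRP1 siRNA replicate 1 it was -0.26. Of all named genes 10.9% had a lower mean value, and the MYC values lay below the means of the blood and endothelial markers CD2, CD14 and VWF. Probe sets differ in how strongly they bind, and no background values were used here, so these levels do not order transcripts by abundance. A value this low can reflect background as well as RNA, and a change of the transcript would be compressed at it. MYCN, another gene of the MYC family, was in none of the gene lists, so these values describe MYC alone.

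MAX, the partner that MYC needs to bind DNA, had nearly equal values in the groups, at 4.983 and 5.002 with SSRP1 siRNA and 4.950 and 5.034 with control siRNA (95% interval of the change -0.25 to 0.25). The MXD proteins, MNT and MGA compete with MYC for MAX. MXD1, one of these antagonists, had 5.47 and 5.50 with SSRP1 siRNA, against 4.68 and 4.83 with control siRNA, a change of 0.73 ± 0.11 (SE, limma adjusted p = 0.113). Both SSRP1 siRNA arrays lay above both control arrays, and the 95% interval was 0.47 to 0.99. MXI1, a related antagonist, differed in the other direction, with 5.77 and 5.91 against 6.14 and 6.19, a change of -0.32 ± 0.11 (SE, adjusted p = 0.337). MXD4 had a change of 0.37 (adjusted p = 0.360), MGA of -0.32 (adjusted p = 0.476) and MNT of -0.12 (adjusted p = 0.691). The list of 10 measured genes also held MLX, MLXIP and MLXIPL. These are not named here as partners or antagonists of MYC but are included in the counts that follow. In limma 0 of these 10 genes passed the test. An unadjusted p under 0.05 was found for 3, 2 higher and 1 lower, against 12.6% of all genes (6.56% higher and 6.03% lower). Their groups did not overlap in 8 of 10, against 44.3% of all genes, with 5 changes above 0 and 5 below. The median change was 0.01, against -0.01 over all genes, and its sign was not stable. It was -0.03 without control siRNA replicate 1 or SSRP1 siRNA replicate 1, and 0.05 and 0.04 without control siRNA replicate 2 and SSRP1 siRNA replicate 2.

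Regulators and cofactors of MYC were measured beside it. Of 15 measured genes 0 passed and 1 (6.67%) had an unadjusted p under 0.05 in limma, against 12.6% of all genes. The median change was -0.03 with 7 changes above 0 (46.7%), against 48.3% of all genes. That median turned to 0.02 without control siRNA replicate 2 and to 0.03 without SSRP1 siRNA replicate 2. That gene was PIM1, a kinase that phosphorylates and stabilises MYC protein. It had 5.90 and 5.87 with SSRP1 siRNA, against 6.88 and 6.79 with control siRNA, a change of -0.94 ± 0.10 (SE, adjusted p = 0.0631). KAT5, an acetyltransferase recruited by MYC, had a change of 0.24 ± 0.10 (SE, adjusted p = 0.411). The other 13 had changes between -0.26 and 0.12.

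ODC1 was lower on both SSRP1 siRNA arrays by a small amount that did not pass the test. RefSeq's promoter table (build GRCh38.p14, matched by symbol) lists a pair of start sites for ODC1, and the window of each runs from 250 bases before to 50 after the start. The motifs searched on both strands were the E-box CACGTG, which is its own reverse complement, and the variants CACATG and CACGCG. Of 35116 promoter windows 7.26% held CACGTG, 11.1% CACATG and 11.4% CACGCG. The 250 bases before the first start (chr2:10448328-10448577, minus strand) held no CACGTG but CACGCG on each strand in overlap, shown in capitals. They are printed here because ODC1 is the textbook polyamine target of MYC.
ODC1 first start: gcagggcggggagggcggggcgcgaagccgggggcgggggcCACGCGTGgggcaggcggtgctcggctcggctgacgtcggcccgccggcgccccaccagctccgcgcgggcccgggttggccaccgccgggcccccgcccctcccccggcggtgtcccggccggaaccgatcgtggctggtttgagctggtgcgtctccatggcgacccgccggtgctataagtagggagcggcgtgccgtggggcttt
The window of the second start held 2 copies of CACGTG, with first bases at -29 and 6 from that start. The 30 bases around each are printed with the E-box in capitals (chr2:10448024-10448053 and chr2:10447990-10448019, minus strand).
ODC1 second start, E-box at -29: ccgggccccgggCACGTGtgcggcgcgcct
ODC1 second start, E-box at 6: ggcctgcggagaCACGTGgtcgccgagcgg

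ODC1 had log2 values of 10.26 and 10.21 with SSRP1 siRNA, against 10.41 and 10.48 with control siRNA. The groups did not overlap, and the gap between the nearest arrays was 0.15, against within-group differences of 0.05 with SSRP1 siRNA and 0.07 with control siRNA. The means were 10.23 ± 0.04 with SSRP1 siRNA and 10.45 ± 0.05 with control siRNA (SD, n = 2 each). The change was -0.21 ± 0.10 (SE, limma adjusted p = 0.462), or 86.3% of the control level (95% interval 72.7 to 102%). Of all genes 26.1% had a larger change in size.

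The neighbours of ODC1 in polyamine synthesis differed little. Ornithine decarboxylase makes putrescine, and the synthases SRM and SMS then make spermidine and spermine with propylamine groups supplied through AMD1. SRM had 10.91 and 10.87 with SSRP1 siRNA, against 11.08 and 10.95 with control siRNA, a change of -0.13 (adjusted p = 0.682). AMD1 had a change of -0.09 with overlapping groups (adjusted p = 0.790). SMS differed the other way, with 9.82 and 9.80 against 9.68 and 9.63, a change of 0.16 (adjusted p = 0.580). Of the 9 measured synthesis genes 0 passed. AGMAT was the 1 (11.1%) with an unadjusted p under 0.05 in the main limma fit, against 12.6% of all genes. Of these genes 5 had changes above 0 and 4 below. The median was 0.05, but -0.00035 without control siRNA replicate 1. The groups did not overlap in 7 of 9, against 44.3% of all genes.

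Genes that control ornithine decarboxylase protein gave small differences in both directions. Antizymes bind the enzyme and send it to the proteasome, and antizyme inhibitors release it. OAZ2, an antizyme, had 4.93 and 4.91 with SSRP1 siRNA, against 5.18 and 5.19 with control siRNA, a change of -0.26 ± 0.10 (SE, limma adjusted p = 0.366). AZIN1, an antizyme inhibitor, had 8.22 and 8.14 against 8.53 and 8.28, a change of -0.23 ± 0.12 (SE, adjusted p = 0.528). OAZ1, another antizyme, had a change of 0.12 (adjusted p = 0.682). Of 5 measured genes 0 passed and 1 had an unadjusted p under 0.05 in limma, against 12.6% of all genes. The median change was -0.15. That median was -0.26 without SSRP1 siRNA replicate 1, -0.05 without SSRP1 siRNA replicate 2 and -0.09 without control siRNA replicate 1.

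The remaining polyamine genes also held 0 past the test. Among the 4 catabolic genes the oxidase gene PAOX had a change of -0.27 (adjusted p = 0.521). SAT1, the acetyltransferase that starts polyamine breakdown, had 4.40 and 3.71 with SSRP1 siRNA, against 4.31 and 4.45 with control siRNA, a change of -0.32 ± 0.23 (SE, adjusted p = 0.622). Replicate 1 with SSRP1 siRNA lay between the control arrays, so the difference rests on replicate 2. Of 3 measured transport genes ATP13A2, a lysosomal polyamine exporter, had 7.49 and 7.23 against 6.94 and 6.84, a change of 0.47 ± 0.13 (SE, adjusted p = 0.262). GPC1, a heparan sulphate proteoglycan, had a change of -0.10 (adjusted p = 0.775). Spermidine is also used to make hypusine on the translation factor EIF5A, and of those 4 genes EIF5A2 and the synthase gene DHPS each had a change of -0.14 (adjusted p = 0.616 and 0.618). Over all 25 measured polyamine genes 12 changes lay above 0 and 13 below, the median was -0.07, and 3 (12%) had an unadjusted p under 0.05, against 12.6% of all genes. The median was -0.02 without control siRNA replicate 2 and -0.0091 without SSRP1 siRNA replicate 1, values added after the data had been seen. The groups did not overlap in 17 of the 25 (68.0%), against 44.3% of all genes.

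**Figure D2:**
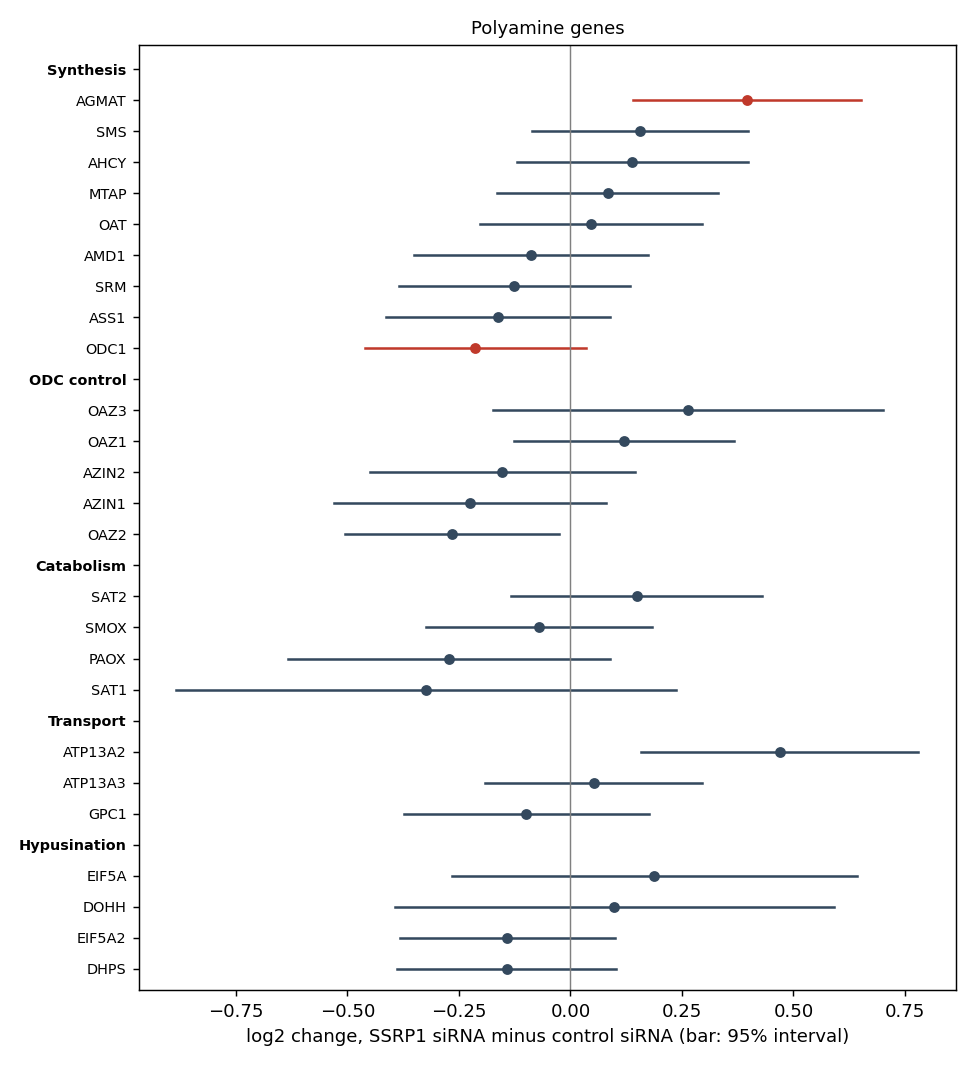
Log2 changes (x axis, SSRP1 siRNA minus control siRNA) of the 25 measured polyamine genes, grouped by role, with points for the change and bars for limma's 95% interval, and with ODC1 and AGMAT in red. The changes run from -0.32 for SAT1 to 0.47 for ATP13A2, and both signs occur in every group of genes.

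AGMAT was higher on both SSRP1 siRNA arrays, and of the 4 members it had the largest change and the smallest p. Its promoter is printed for comparison with the known MYC targets. The 250 bases before its start (chr1:15585052-15585301, minus strand) and the 50 after held no CACGTG and no CACATG. They held CACGCG once, read on the reverse strand from -7 and shown in capitals.
AGMAT: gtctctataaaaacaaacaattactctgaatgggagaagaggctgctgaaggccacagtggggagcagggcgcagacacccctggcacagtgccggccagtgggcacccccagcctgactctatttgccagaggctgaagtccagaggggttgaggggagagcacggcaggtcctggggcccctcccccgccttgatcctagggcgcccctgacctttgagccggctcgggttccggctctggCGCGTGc
AGMAT had log2 values of 4.44 and 4.42 with SSRP1 siRNA, against 3.97 and 4.09 with control siRNA. The groups were 0.33 apart at their nearest arrays, while arrays of the same group differed by 0.02 with SSRP1 siRNA and 0.12 with control siRNA. The means were 4.43 ± 0.01 with SSRP1 siRNA and 4.03 ± 0.09 with control siRNA (SD, n = 2 each). The change was 0.39 ± 0.10 (SE, limma adjusted p = 0.257, unadjusted p = 0.00946), or 131% of the control level (95% interval 110.1 to 157%). Of all genes 7.06% had a larger change in size, and 43.7% had a lower mean value.

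CDK4 was slightly higher on both SSRP1 siRNA arrays. The window of its start held 3 copies of CACGTG, at -216, -196 and -101, and 1 of CACATG at -34. Of all 35116 windows 33 (0.0940%) held CACGTG at least 3 times. The 250 bases before the start (chr12:57752311-57752560, minus strand) are printed because they hold all 4 motifs, shown in capitals.
CDK4: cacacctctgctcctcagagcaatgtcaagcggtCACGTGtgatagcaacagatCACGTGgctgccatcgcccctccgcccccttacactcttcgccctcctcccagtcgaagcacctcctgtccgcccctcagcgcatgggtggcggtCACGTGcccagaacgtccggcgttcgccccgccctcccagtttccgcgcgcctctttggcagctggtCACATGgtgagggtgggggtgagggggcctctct
A match of these letters describes the window and does not show that MYC binds there. CDK4 had log2 values of 10.09 and 10.18 with SSRP1 siRNA, against 9.88 and 9.89 with control siRNA. The nearest arrays of the groups were 0.20 apart, and arrays of the same group differed by 0.08 with SSRP1 siRNA and 0.008 with control siRNA. The means were 10.13 ± 0.06 with SSRP1 siRNA and 9.89 ± 0.0057 with control siRNA (SD, n = 2 each). The change was 0.25 ± 0.10 (SE, limma adjusted p = 0.396, unadjusted p = 0.05003), or 119% of the control level (95% interval 100.0 to 141%). Of all genes 20.3% had a larger change in size.

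Other genes of the G1 step were set beside CDK4. CCNE1, the cyclin of CDK2, had 6.43 and 6.84 with SSRP1 siRNA, against 6.20 and 5.95 with control siRNA, a change of 0.56 ± 0.17 (SE, limma adjusted p = 0.308). CCND1, a D-type cyclin that activates CDK4, had 8.82 and 8.88 against 8.34 and 8.64, a change of 0.36 ± 0.13 (SE, adjusted p = 0.366). CDK6, the close relative of CDK4, differed the other way, with 8.21 and 7.92 against 8.51 and 8.28, a change of -0.33 ± 0.15 (SE, adjusted p = 0.425). CDK2 had a change of -0.22 (adjusted p = 0.559). Of 11 measured G1 cyclins and kinases 0 passed and 2 (18.2%) had an unadjusted p under 0.05 in limma, both higher, against 12.6% of all genes and 6.56% higher. The changes were above 0 in 7 and below 0 in 4. The median was 0.08, but 0.04 without control siRNA replicate 1 or replicate 2.

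The measured brakes of the same step held 0 past the test as well. Of 7 listed inhibitor genes only 1 was measured, CDKN2A, whose transcripts encode an inhibitor of CDK4 and CDK6. CDKN2A had 5.14 and 4.98 with SSRP1 siRNA, against 5.28 and 5.37 with control siRNA (change -0.26 ± 0.11 SE, limma adjusted p = 0.412). Of 8 measured RB and E2F genes RBL2, a pocket protein related to RB1, had 6.78 and 6.78 against 7.08 and 7.06, a change of -0.29 ± 0.10 (SE, adjusted p = 0.344). RBL1, another pocket protein, had a change of 0.23 ± 0.14 (SE, adjusted p = 0.569). RB1 and the activating factor E2F1 had changes of -0.05 and 0.02 with overlapping groups. The median over these 8 genes was -0.03, and it lay at 0.00015 without control siRNA replicate 1 and 0.02 without SSRP1 siRNA replicate 2. RBL2 was the 1 of the 8 (12.5%) with an unadjusted p under 0.05 in limma, against 12.6% of all genes.

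**Figure D3:**
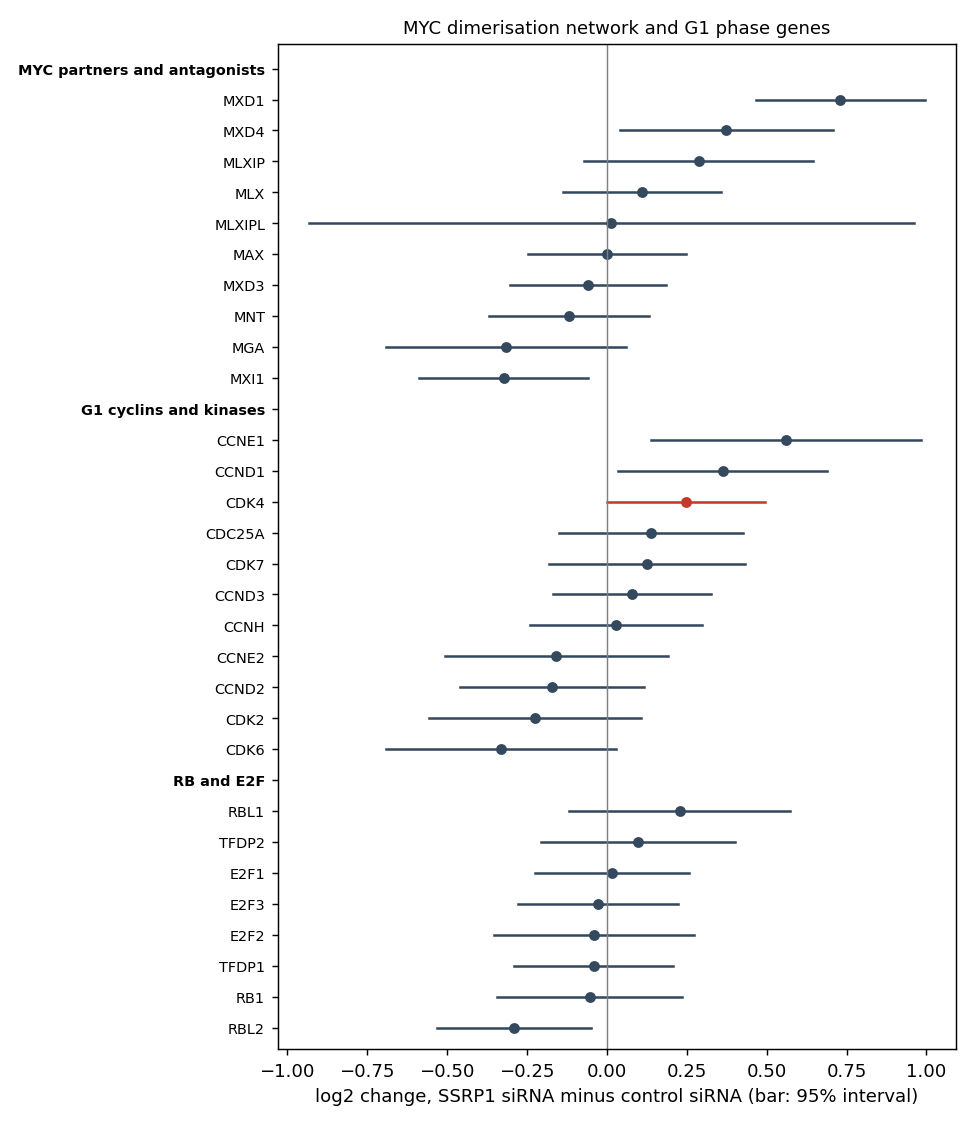
Log2 changes (x axis, SSRP1 siRNA minus control siRNA) of the measured MYC partners and antagonists, G1 cyclins and kinases, and RB and E2F genes. MLX, MLXIP and MLXIPL are drawn with the first group but are not named as partners or antagonists of MYC. Points are the change, bars limma's 95% interval, and CDK4 is in red. MXD1 has the largest change at 0.73, MAX lies at 0, and the lower end of the CDK4 interval touches 0.

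ODC1 and CDK4 differed in opposite directions although both are textbook MYC targets, and this was measured within each array. The log2 difference ODC1 minus CDK4 was 0.17 and 0.03 with SSRP1 siRNA, against 0.53 and 0.59 with control siRNA. It was 0.46 lower with SSRP1 siRNA (SSRP1 siRNA minus control siRNA -0.46), and both arrays of that group lay below both of the other. AGMAT minus ODC1 was -5.82 and -5.79 with SSRP1 siRNA, against -6.44 and -6.39 with control siRNA, a difference of 0.61 between the groups. AGMAT minus CDK4 was -5.66 and -5.76 with SSRP1 siRNA, against -5.91 and -5.80, a difference of 0.15. Such a within-array difference does not move when an array is centred, and its absolute size has no meaning because probe sets differ in brightness. The exact permutation test (two-sided) gave p = 0.333 for each of the 3 pairs, the smallest p that 2 arrays against 2 allow, so it cannot pass a threshold.

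The wider set of MYC-induced genes gave a median change of -0.08 over 28 measured members, ODC1 and CDK4 included, against -0.01 over all genes. There 9 changes (32.1%) lay above 0 and 19 below, against 48.3% above 0 over all genes. In limma 0 genes passed and 2 (7.14%) had an unadjusted p under 0.05, against 12.6% of all genes. These 2 were CCNE1, given above, and IMPDH1, an enzyme of guanine nucleotide synthesis. IMPDH1 had 9.19 and 9.18 with SSRP1 siRNA, against 9.45 and 9.42 with control siRNA, a change of -0.25 ± 0.10 (SE, adjusted p = 0.385). The groups did not overlap in 21 of the 28 (75%), with 6 higher and 15 lower, against 21.8% higher and 22.5% lower over all genes. These 28 genes were brighter, with a median level of 8.18 against 4.64 over all genes, and the part of level in this share was not tested. The median of this list was -0.03 without control siRNA replicate 2 and between -0.08 and -0.06 without any other array.

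Genes with the E-box in their promoter were described in the same way. A RefSeq window was found for 10736 of the genes tested, and 1186 of these (11%) held CACGTG. Their median change was -0.02, with 5% of them below -0.34 and 5% above 0.33, and 0 passed the test while 154 (13%) had an unadjusted p under 0.05. The 9550 genes without it had a median of -0.0036, with the same bounds at -0.32 and 0.35, and 12 passed while 1189 (12.5%) had an unadjusted p under 0.05. Changes lay above 0 in 45.2% of the genes with CACGTG and in 48.7% of all genes with a window. Only 20 measured genes, CDK4 among them, held 3 or more copies, and their median change was 0.04 with 12 (60%) above 0. Of the MYC-induced genes 13 of 21 with a window held CACGTG, and 2 of those 13 changes (15.4%) lay above 0. Over all 21 the changes lay above 0 in 5 (23.8%). The median change was -0.084 for the 13 and -0.083 for the 21. The 21 include the 13, so these medians cannot separate genes with the E-box from those without. The part of the E-box in these values was not tested.

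**Figure D4:**
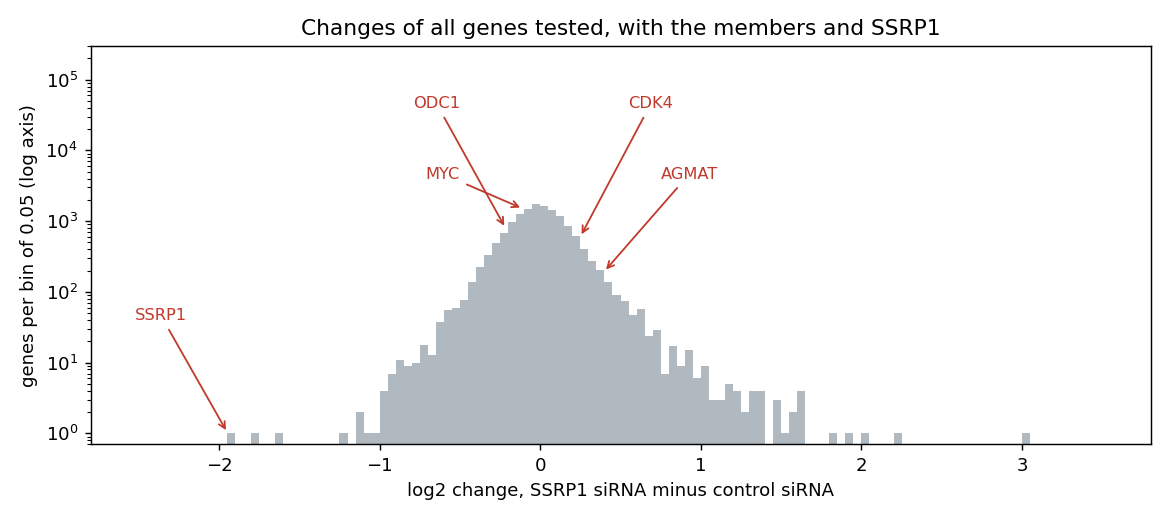
Number of genes (y axis, log scale) by log2 change, SSRP1 siRNA minus control siRNA (x axis, bins of 0.05), over the 14812 genes tested. Arrows mark MYC, ODC1 and CDK4 within the middle 90% of genes (-0.34 to 0.35), AGMAT just above that range and SSRP1 far below it.

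For each member the 3 genes with the most similar profile were found by Euclidean distance between log2 values centred on each gene's mean over the 4 arrays. For MYC these were CDK18, TMEM9 and MIR526A1 (distances 0.016, 0.018 and 0.020). KIF20A, HDGFL2 and PREPL were nearest to ODC1 (0.012, 0.020 and 0.021). For CDK4 they were HEMK2, SEC11A and KIF13A (0.018, 0.020 and 0.021), and for AGMAT they were TDG, ACAN and CRBN (0.0098, 0.016 and 0.025). Profiles of this kind were common, since 604 genes lay within 0.2 of AGMAT, 1619 of MYC, 2284 of CDK4 and 2952 of ODC1. With 4 arrays the likeness describes these samples and does not tie the genes together.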

How the data were processed

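The values are log2 per probe set, deposited by the authors after RMA, as named in the submitters' processing notes. Software, version and probe set definition are not given in those notes. The log2 scale was read from the values (0.502 to 12.8). Of 46255 probe sets 15835 had 1 symbol in the platform annotation, covering 14812 genes, and the rest were unnamed here; all gene IDs were found in the RefSeq gene table (GRCh38.p14). Where a gene had several probe sets the brightest on average was used, and each member had 1.

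limma 3.58.1 (R 4.3.3; lmFit, eBayes without trend or robust estimation) was fitted to all genes, 2 arrays against 2, with no filter and no block, on 2 residual and 3.79 prior degrees of freedom. P-values are two-sided and Benjamini-Hochberg adjusted over all genes. The fit was tested on simulated data. The number of arrays limits the precision.

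The 4 genes and all gene lists were chosen with earlier results of these data known. Not every listed gene was measured. The share was 28 of 45 for MYC-induced genes, 15 of 21 for MYC regulators and 3 of 10 for polyamine transport. From each list genes past the test were named, otherwise the 2 of smallest p. MAX, SSRP1 and the 3 nearest profiles per member were also named by rule, and other genes were chosen after their values were seen. Summed marker levels are log2 of the summed linear values. Alternatives were a replicate block, a variance trend, robust variances, quantile normalization, median centring, mean of probe sets, a level filter, all probe sets, an adjusted p under 0.1 and each array left out.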

Additional observations from a re-analysis of the deposited data

How the results depend on the processing

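No alternative brought MYC, ODC1, CDK4 or AGMAT past the test in limma. The lowest adjusted p outside the fits that leave out an array was 0.708 for MYC, 0.146 for ODC1, 0.111 for CDK4 and 0.204 for AGMAT. ODC1 and CDK4 kept their direction in 12 of 12 alternatives and AGMAT in 11 of 11, but most of these could not turn it. A block, another variance model or another choice of genes or probe sets left the change as it was. Where groups do not overlap, leaving out 1 array cannot turn the sign. Quantile normalization and median centring could, and gave -0.23 and -0.19 for ODC1, 0.22 and 0.27 for CDK4, and 0.42 and 0.42 for AGMAT. With 1 array left out, on 1 residual degree of freedom, the change lay between -0.25 and -0.18 for ODC1, between 0.21 and 0.29 for CDK4 and between 0.33 and 0.46 for AGMAT. For MYC it lay between -0.26 and 0.05, and the sign turned without SSRP1 siRNA replicate 2 (0.052). MYC and AGMAT lay below the median level and had no value under the level filter. With the replicate block the SSRP1 change was -1.95 (adjusted p = 0.0569) and 6 genes passed, where the main count was 14. The deviations of same-numbered arrays correlated at 0.11, and with 2 pairs the numbers were not taken to pair the samples. The SSRP1 change of -1.95 also missed the threshold with robust variances (adjusted p = 0.0512) and over all probe sets (0.144). Without any 1 array it lay between -2.17 and -1.72, with adjusted p between 0.241 and 0.599. Genes past the test numbered 215 with a variance trend, 179 under the level filter, 28 after quantile normalization, 23 after median centring, 41 at an adjusted p under 0.1 and 9 with robust variances. In limma 0 probe sets passed when unnamed ones were included (3854 at an unadjusted p under 0.05), and 0 genes passed without any 1 array (1200 to 1672). No member was past the test in any of these. CDK4 had an unadjusted limma p under 0.05 with a variance trend (0.0035), the level filter (0.027), median centring (0.039) and mean of probe sets (0.0488). ODC1 had one with a variance trend (0.0064) and the level filter (0.0467). Median centring moved the median change of all genes by 0.02. The cause of these differences was not tested.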
